A study of Mus musculus with 18 samples.

Results

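RNA was compared between mouse intestinal organoids that had been taken out of Wnt3a-conditioned medium and Y-27632, an inhibitor of the ROCK kinases, and organoids that still had both. The later group was the 6 libraries of days 4 and 5 and the earlier group the 6 libraries of days 2 and 3, together 12 of the 18 libraries of a series that followed organoids from day 0 to day 5. Libraries were taken by their day alone, so no measured value entered the choice. Intestinal organoids are hollow epithelial structures that grow in a gel from crypt cells and form budding crypts. Every group was C57BL/6 wild type, from animals of 8 weeks, in medium with EGF, Noggin and the Wnt amplifier R-spondin. The earlier group also had 20% Wnt3a-conditioned medium and 10 µM Y-27632, and the later group had neither. CHIR99021, an inhibitor of the kinase GSK3 that raises Wnt signalling, had been given to the cultures of all groups at 3 µM, only until day 1. Medium and age of the culture changed together between the groups, so their effects cannot be told apart. Each library came from 30 pooled wells, and the titles name 3 mice. Replicate 1 was mouse 1 and replicate 3 was mouse 3 throughout, while replicate 2 was mouse 1 at day 2 and mouse 2 at days 3, 4 and 5. Replicate 1 alone was made without DNase treatment.

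Wnt proteins bind Frizzled receptors with LRP co-receptors and thereby protect beta-catenin from breakdown. Beta-catenin then joins the DNA-binding TCF and LEF factors at target genes such as Axin2 and Lgr5, and R-spondin holds more Frizzled at the membrane. In the crypt base this pathway maintains stem cells and Paneth cells, and Paneth cells themselves make Wnt3 and Notch ligands for their stem cell neighbours. ROCK kinases raise the contraction of actomyosin, and Y-27632 is added to cultures because it protects single epithelial cells from contraction-driven death.

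Values were RPKM, the reads of a gene per kilobase of transcript, scaled to the depth of the library. Implied depth was 43010000 to 52400000 reads over the 12 libraries, with 9953 to 10552 genes at 1 RPKM or more in each. The libraries were epithelial by their markers, with a median of 409 RPKM of Epcam, an adhesion protein of epithelia, in the earlier group and 386 RPKM in the later. The 14 mesenchymal markers summed to 0.0765 to 0.388 RPKM in the earlier and 0.129 to 0.283 RPKM in the later libraries, and Col3a1, Col6a1, Dcn, Lum and Thy1 were at 0 in all 12. The 14 immune markers summed to 0.733 to 1.19 and 0.533 to 1.78 RPKM. In a principal component analysis, the leading component held 62.8% of the variance and placed 10 libraries with their group. Day 3 replicate 1 lay among the later libraries and day 4 replicate 3 among the earlier ones.

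Antimicrobial and secreted products of the crypt were much higher after the removal, and the genes called lower included members of the fetal-like epithelial state and of cell division. The filter kept 10818 genes that reached 1 RPKM in 3 or more of the 12 libraries. Among them limma called 794 (7.34%) at a Benjamini-Hochberg adjusted p under 0.05. Of these, 368 (3.4%) were higher and 426 (3.94%) lower in days 4 and 5. The increases were the larger changes, with 181 genes higher and 59 lower at a size of 2-fold or more. Changes here are differences of log2(RPKM + 1), and the added 1 shrinks those of weakly expressed genes. The median change was 0.99 among genes called higher and -0.61 among genes called lower, beside -0.13 over all genes tested. For 91 genes (0.841%) the 6 later values all lay above the 6 earlier values, and for 124 (1.15%) all lay below. With the mouse as a factor limma called 3604 genes, 1122 higher (10.4%) and 2482 lower (22.9%), and with the replicate number as a block it called 2857, 899 higher (8.31%) and 1958 lower (18.1%). Rescaling the RPKM by the median of ratios moved the median change of all genes from -0.13 to -0.02 and the calls to 438 higher and 334 lower, so that 56.7% of calls were higher in place of 46.3%. The lowest adjusted p without a block was 0.0164, so calls were close to the threshold. In limma no gene was called without day 2 replicate 1, day 5 replicate 1 or day 5 replicate 3, with 3144, 3080 and 3276 genes at an unadjusted p under 0.05, while 4314 were called without day 4 replicate 3 and 2862 without day 3 replicate 1. Against days 2 and 3, day 5 alone gave 848 higher (7.84%) and 1281 lower (11.8%) genes and day 4 alone gave none, with 989 genes at an unadjusted p under 0.05. All 794 calls kept their direction in each of these fits, which reuse libraries that made the calls.

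**Figure D1:**
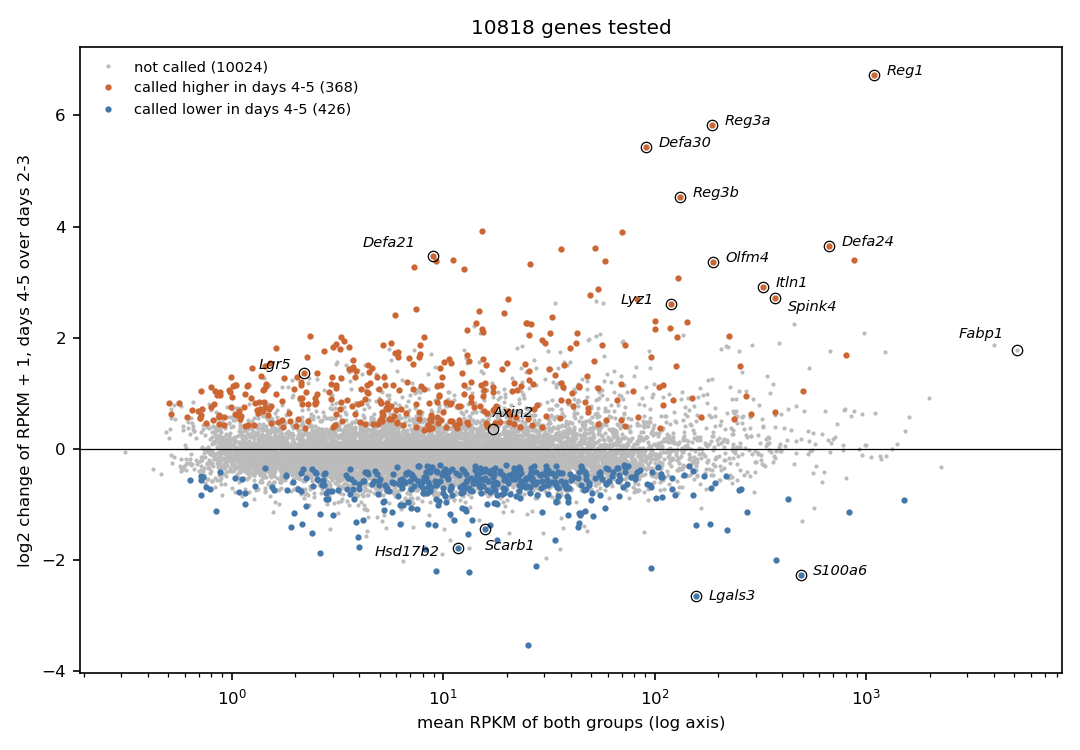
Each point is 1 of 10818 genes, with the mean RPKM of both groups on a log axis and the log2 change of RPKM + 1 on the vertical axis; orange genes were called higher and blue genes lower in days 4 and 5. Reg1, Reg3a and Defa30 lie at the top with changes of 6.72, 5.83 and 5.43, and Cyp1a1 lies lowest at -3.52, with Lgals3 and S100a6 at -2.65 and -2.26.

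**Figure D2:**
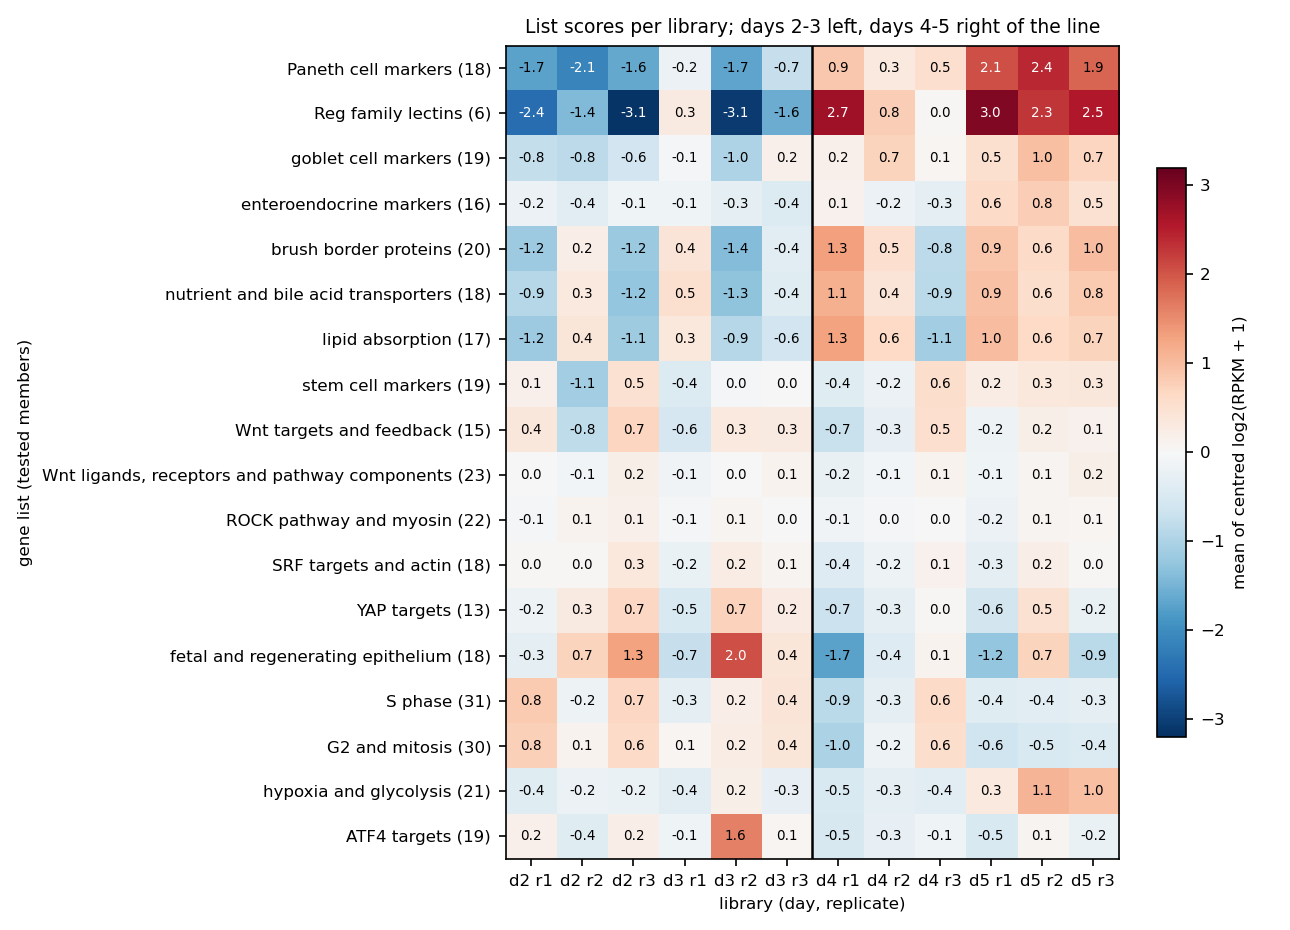
Each cell is a list score, the mean over the list's tested genes of log2(RPKM + 1) after subtracting each gene's own mean, with libraries in columns and lists in rows. The Paneth cell score runs from -2.11 to -0.2 in days 2 and 3 and from 0.31 to 2.41 in days 4 and 5, and day 4 replicate 3 has low enterocyte scores and a high S phase score.

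Paneth cell products rose as a group. Paneth cells sit at the crypt base and secrete alpha-defensins (the Defa genes), lysozyme and other antimicrobial proteins. Of 25 Paneth cell markers 22 were in the table and 18 were tested, and 17 of the 18 were called higher (17 of 18 against 3.4% of all genes), with a median change of 2.76. The groups did not overlap for 12 of the 18, while 0.841% of all genes had every later value above the earlier ones. Members such as Defa21, Defa22, Defa26, Defa30, Gm14851 and AY761184 passed the filter on low values only through the later libraries. Their calls and their lack of overlap were therefore partly fixed by the filter. The exception was Mmp7, the protease that activates defensins, which had an adjusted p of 0.053 at a change of 1.54. All 18 were called higher with the mouse as a factor, beside 10.4% of all genes. In such bulk libraries more cells of a type and more RNA per cell cannot be told apart. The 4 untested members were under 1 RPKM in every library, and Defa5 and Defa20 were at 0.

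Defa24 was the most abundant defensin. It had 22.2, 55.9 and 312 RPKM (lowest, median, highest) in days 2 and 3 and 629.8, 1115 and 2049 RPKM in days 4 and 5. The groups did not overlap, and within the earlier group replicates 1 and 3 of day 3 stood above the rest. The change was 3.66 ± 0.62 (SE, log2 scale), with an adjusted p of 0.0201. Its mean was higher at each later day, from 39.8 ± 15.2 (SD, n = 3) RPKM at day 2 to 228 ± 143 at day 3, 648 ± 16.6 at day 4 and 1744 ± 265 at day 5. Defa30 had the largest change of the defensins. Its values were 0.278, 0.7 and 14.9 RPKM in the earlier and 30, 159 and 406 RPKM in the later libraries. The groups were apart, the change was 5.43 ± 0.76 with an adjusted p of 0.0164, and the ratio of the means was 51.2. Defa30 passed the filter on low values only through the later libraries, so its call and separation were partly fixed by the filter. Defa17 went from a median of 3.75 to 109 RPKM (change 3.90, adjusted p = 0.0202). Defa21, Defa22, Defa26 and the defensin-like AY761184 were near 0 in days 2 and 3, with medians of 0.0455, 0.0769, 0.14 and 0.0993 RPKM, and had medians of 18, 15.3, 16.5 and 30.3 RPKM in days 4 and 5. None of these 4 overlapped between the groups, but all 4, like Defa30, passed the filter on low values only through the later libraries. In both subsets by DNase treatment the change of Defa30 was positive, 5.70 in treated and 4.90 in untreated libraries. Without any single library the unadjusted p of Defa30 stayed between 1.11e-06 and 3.23e-05, although its adjusted p reached 0.058 and the call was lost without day 2 replicate 1, day 5 replicate 1 or day 5 replicate 3. The 6 named Defa genes lie on chromosome 8 between positions 21025545 and 21735471 (mm10, GRCm38). Reads from near-identical defensins may be split between them, because how the authors treated reads that match several genes is not given in the sources used here.

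Lyz1, the lysozyme of Paneth cells, had 7.65, 26.3 and 93.5 RPKM in the earlier and 110.2, 156 and 333 RPKM in the later group, without overlap (change 2.61 ± 0.54, adjusted p = 0.034). Itln1, the carbohydrate-binding lectin intelectin, had 19.1, 57.9 and 172 RPKM and then 286, 504 and 955 RPKM, also without overlap (change 2.91 ± 0.51, adjusted p = 0.0201). Both genes were lowest in day 2 replicate 2 and stayed called in the fit with the mouse. Leaving out 1 library at a time, their adjusted p reached 0.093 and 0.0698.

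Reg1 and Reg3a had the largest changes of the genes tested. The Reg genes encode small secreted C-type lectins, and Reg3b and Reg3g act on bacteria at the gut surface. Of 6 tested members 5 were called higher, beside 3.4% of all genes, with a median change of 3.96. With the mouse as a factor all 6 were, beside 10.4% of all genes. Reg1 had 0.76, 7.09 and 129 RPKM in days 2 and 3 and 67.6, 2195 and 5239.9 RPKM in days 4 and 5, a ratio of means of 81.8. The groups overlapped, since day 3 replicate 1 had 129 RPKM and replicates 2 and 3 of day 4 had 107 and 67.6 RPKM, beside 2242 RPKM in day 4 replicate 1. The change was 6.72 ± 1.24, with an adjusted p of 0.0255. Reg3a had 0.207, 2.78 and 37.7 RPKM and then 32.9, 454 and 595 RPKM (change 5.83 ± 0.94, adjusted p = 0.0181). Day 3 replicate 1 was again the highest of its group and day 4 replicate 3 the lowest. Reg3b changed by 4.53 and Reg3g by 3.39, with adjusted p of 0.0293 and 0.0181. Reg4, another member of the family, had medians of 43 and 61.9 RPKM and missed the threshold (change 0.74, adjusted p = 0.0543). Over the fits that left out 1 library the change of Reg1 was between 6.22 and 7.50 and its adjusted p at most 0.0767. Reg3b, Reg3a, Reg1 and Reg3g lie together on chromosome 6, between positions 78370885 and 78468874.

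**Figure D3:**
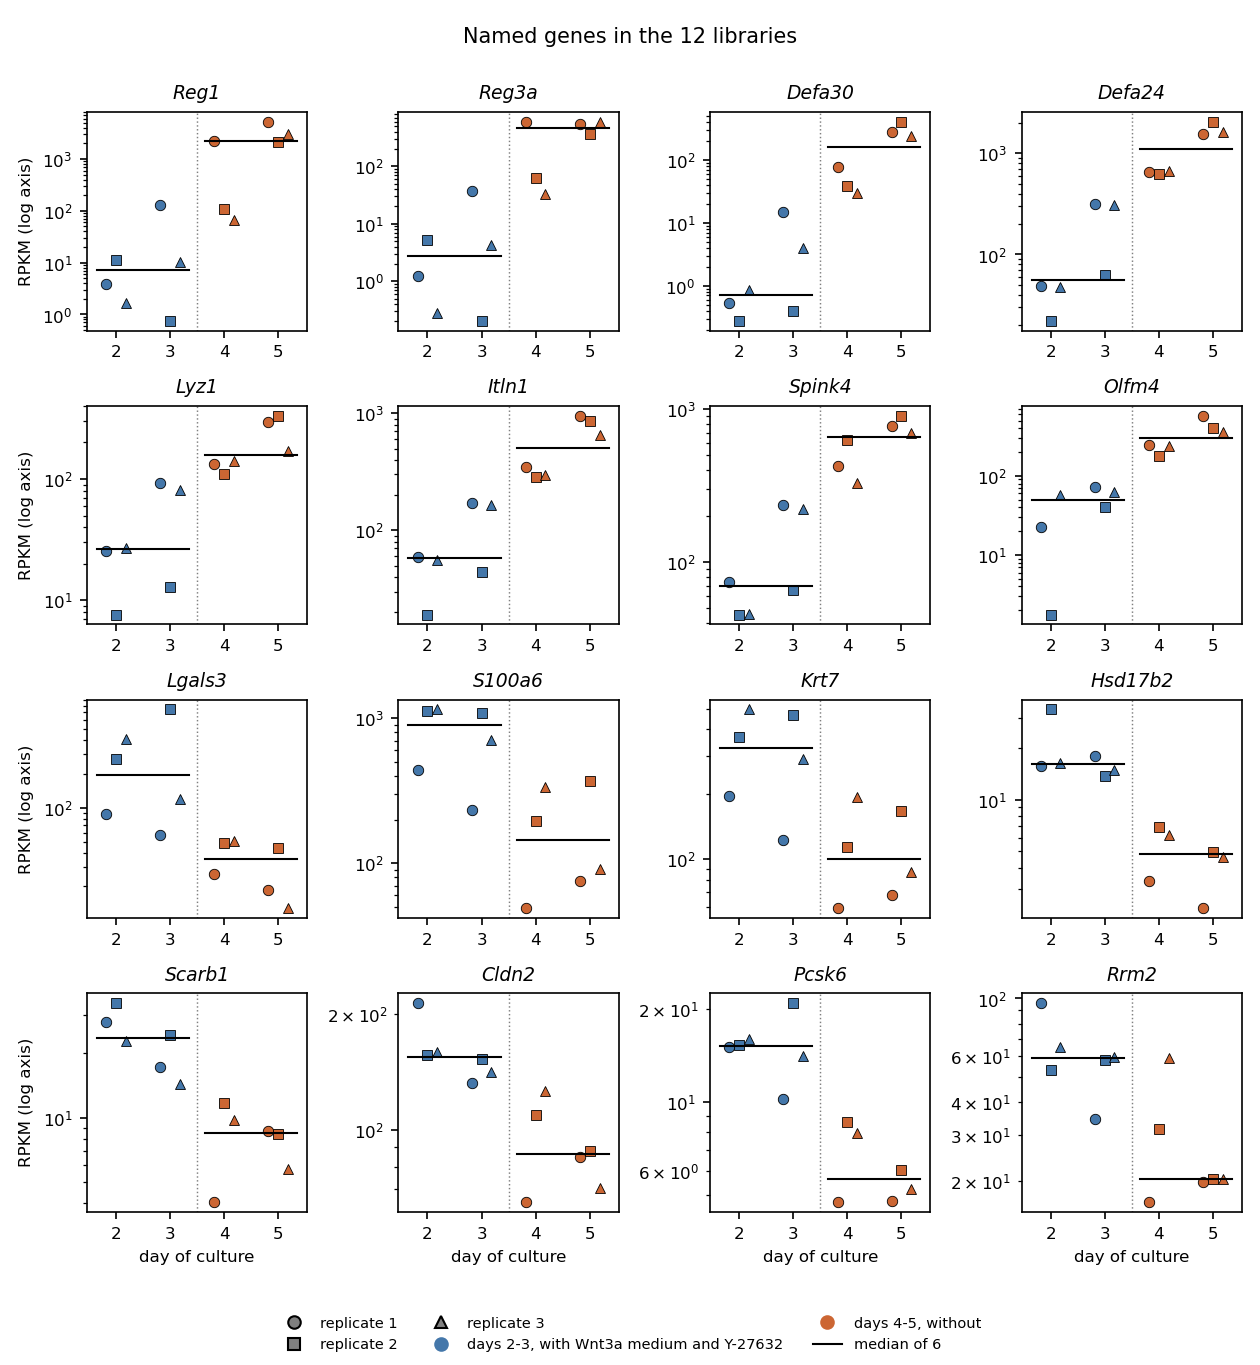
RPKM on a log axis against the day of culture for 16 named genes, 1 point per library, with the symbol giving the replicate and a line at the median of each group of 6. Defa24, Lyz1, Itln1, Spink4 and Olfm4 do not overlap between days 2 and 3 and days 4 and 5, and for Rrm2 day 4 replicate 3 lies among the earlier libraries.

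Promoters of 4 genes that rose are shown because they hold the core motif read by TCF and LEF factors, and that of Reg1 because it had the largest change. They were picked for the motif, and larger risers such as Reg3b, which lacks it, and Defa24, which had no promoter entry, are not shown. The letters CTTTGAT, searched on both strands in the 250 bases before the start, occur in 3.21% of 32851 promoters of the RefSeq table (GRCm38.p6). Of the 81 named genes 61 had a promoter entry, with 74 entries in all. A named gene was counted if any of its entries matched, while shares over all promoters are per entry. The named genes were also chosen for their changes and include related Defa and Reg genes, and enrichment was not tested. The motif was present in 6 of 25 such genes called higher (Defa21, Defa22, Defa30, Ggt1, Reg3a and Reg3g), or in 5 of 24 with the identical promoters of Defa21 and Defa22 counted once. It was in 2 of 24 called lower (Tigar and Ube2c) and in 0 of 12 not called. Capitals mark CTTTGAT or its reverse complement ATCAAAG below, except in Reg1, where they mark TGAGTCA, which AP-1 factors read. The general AP-1 form, TGANTCA, was in 6.75% of all promoters and in 5 of the 25 genes called higher, 0 of the 24 called lower and 1 of the 12 not called.
Defa21, chr8:21025295-21025544 (plus strand): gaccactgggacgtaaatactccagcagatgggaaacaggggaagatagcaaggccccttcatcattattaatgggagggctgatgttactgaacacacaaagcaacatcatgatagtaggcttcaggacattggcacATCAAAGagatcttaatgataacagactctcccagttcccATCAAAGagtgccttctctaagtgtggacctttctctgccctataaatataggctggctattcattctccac
Defa30, chr8:21134400-21134649 (plus strand): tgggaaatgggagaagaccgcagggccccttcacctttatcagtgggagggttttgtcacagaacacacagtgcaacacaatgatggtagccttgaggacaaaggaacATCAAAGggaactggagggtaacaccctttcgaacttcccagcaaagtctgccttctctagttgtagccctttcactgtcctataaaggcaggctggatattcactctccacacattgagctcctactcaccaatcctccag
Reg3a, chr6:78380459-78380708 (plus strand): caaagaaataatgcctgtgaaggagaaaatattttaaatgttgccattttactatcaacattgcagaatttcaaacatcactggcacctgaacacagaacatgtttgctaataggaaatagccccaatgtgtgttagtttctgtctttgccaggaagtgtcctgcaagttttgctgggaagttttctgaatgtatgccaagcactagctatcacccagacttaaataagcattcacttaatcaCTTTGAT
Reg3g, chr6:78468875-78469124 (minus strand): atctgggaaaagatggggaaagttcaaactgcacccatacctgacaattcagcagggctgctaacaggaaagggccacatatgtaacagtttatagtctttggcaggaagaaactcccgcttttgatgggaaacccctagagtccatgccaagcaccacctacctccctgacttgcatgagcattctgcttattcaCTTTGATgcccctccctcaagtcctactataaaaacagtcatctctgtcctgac
Reg1, chr6:78425733-78425982 (plus strand): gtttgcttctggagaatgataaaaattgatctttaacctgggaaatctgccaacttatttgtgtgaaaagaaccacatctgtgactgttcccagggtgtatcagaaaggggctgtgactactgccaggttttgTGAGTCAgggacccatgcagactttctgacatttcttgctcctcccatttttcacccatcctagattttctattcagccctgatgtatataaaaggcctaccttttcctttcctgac

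Defa21 carries the motif at 112 to 106 and again at 72 to 66 bases before its start. Its 250 upstream bases are the same as those of Defa22. The match in Defa30 lies 142 to 136 bases, that in Reg3g 54 to 48 bases and that in Reg3a 7 to 1 bases before the start. The related form CTTTGAA was in 4.46% of all promoters and in 3 of 25, 0 of 24 and 0 of 12 genes. GGAATG, the core motif of the TEAD factors through which YAP acts, was in 12.6% of all promoters and in 3 of 25, 4 of 24 and 3 of 12 genes. A match describes the letters in this window and is not evidence of binding.

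Goblet cell genes were higher in part. Goblet cells make mucus. Of 19 tested markers 10 were called higher and none lower, beside 3.4% and 3.94% of all genes. The median change was 0.82, and all 19 changes were above 0. The fit with the mouse called 11 higher, beside 10.4% of all genes. Spink4, a small secreted protein of goblet cells, had 45.2, 69.7 and 235 RPKM in the earlier and 330.2, 662 and 909 RPKM in the later group, which did not overlap (change 2.71 ± 0.44, adjusted p = 0.0181). Zg16, a lectin of the mucus layer, rose from a median of 34.1 to 236 RPKM (change 2.28, adjusted p = 0.0363), with overlap. Klk1, a serine protease, and the chemokine gene Ccl9 rose by 1.87 and 1.90. Muc2, the main mucin of the intestine, had 0.278, 1.39 and 5.08 RPKM and then 2.21, 6.01 and 14.8 RPKM, at an adjusted p of 0.053, and 0.0263 with the mouse as a factor. Leaving out 1 library at a time, the adjusted p of Spink4 reached 0.064.

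Hormone genes of enteroendocrine cells passed the test mostly in the fit of day 5 alone. Of 16 tested markers 2 were called higher and none lower, beside 3.4% and 3.94% of all genes. Against days 2 and 3 day 5 alone gave 9 of 16 higher, beside 7.84% of all genes. Gip, the gene of the incretin GIP, had 3.85, 11.8 and 18.8 RPKM in the earlier and 15.2, 53.8 and 77.9 RPKM in the later group (change 1.90 ± 0.46, adjusted p = 0.0398). The 3 libraries of day 5 had 73, 75.1 and 77.9 RPKM, and those of day 4 34.7, 18.4 and 15.2. Ghrl, the ghrelin gene, rose by 1.29 ± 0.32 (adjusted p = 0.04). Chga, the granule protein chromogranin A, had medians of 9.75 and 13.6 RPKM and was not called (change 0.23, adjusted p = 0.514). The adjusted p of Gip reached 0.101 when 1 library was left out. Ltc4s was the 1 tested tuft cell marker of 19 and was not called, and 16 were under 1 RPKM in all 12 libraries, among them Dclk1 at 0 to 0.123 RPKM.

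Among Notch and secretory fate genes 2 of 16 were called higher and none lower, beside 3.4% and 3.94% of all genes. Nrarp, a feedback inhibitor that Notch induces, had 4.93, 7.09 and 8.33 RPKM and then 8.65, 10.8 and 11.3 RPKM, without overlap (change 0.51 ± 0.12, adjusted p = 0.0385). Bhlha15, a factor that shapes the secretory apparatus, rose from a median of 1.22 to 3.16 RPKM (adjusted p = 0.0385). Atoh1, the factor that starts secretory fate, had 2.22 and 3.57 RPKM and an adjusted p of 0.0619. The fit with the mouse called 4 higher and 3 lower, beside 10.4% and 22.9% of all genes. Both calls were lost without day 2 replicate 1, day 5 replicate 1 or day 5 replicate 3, among others, with adjusted p of up to 0.0971 and 0.0996.

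Stem cell markers were mixed after Wnt3a was taken away. Of 19 tested, Lgr5, Olfm4 and Gkn3 were called higher and Phgdh lower, beside 3.4% and 3.94% of all genes. The median change was 0.08. The fit with the mouse called 3 higher and 2 lower, beside 10.4% and 22.9% of all genes, with a list median of -0.04. Lgr5, the R-spondin receptor that marks crypt base stem cells and is itself a Wnt target, had 0.11, 0.869 and 1.04 RPKM in Wnt3a medium and 1.16, 3.77 and 5.85 RPKM after it. The 6 later libraries all lay above the 6 earlier ones, closest in day 4 replicate 1 at 1.16 against day 2 replicate 1 at 1.04 RPKM. Lgr5 passed the filter on low values only through the later libraries, so its call and lack of overlap were partly fixed by the filter. The change was 1.37 ± 0.27, with an adjusted p of 0.0293, 0.0109 with the mouse as a factor. Its means were 0.682 ± 0.5 (SD, n = 3) RPKM at day 2, 0.742 ± 0.22 at day 3, 2.22 ± 1.13 at day 4 and 5.14 ± 0.885 at day 5. Between days 2 and 3 this mean differed by less than the spread of the libraries. Lgr5 lies on chromosome 10 between positions 115450314 and 115587780.

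Olfm4, a secreted glycoprotein of crypt base cells, had 1.77, 49 and 71.3 RPKM in the earlier and 178, 301 and 577 RPKM in the later group, without overlap (change 3.37 ± 0.68, adjusted p = 0.0293). The lowest value was that of day 2 replicate 2, and the next lowest was 22.7 RPKM. Gkn3, a secreted gastrokine, rose from a median of 0.502 to 5.79 RPKM (change 1.89 ± 0.33, adjusted p = 0.0201). Like Lgr5, Gkn3 passed the filter on low values only through the later libraries. Phgdh, the enzyme that opens serine synthesis, fell by 1.08 on the log2 scale (adjusted p = 0.0439). When libraries were left out singly, Lgr5 passed in 4, Olfm4 in 5 and Gkn3 in 6 of 12 fits, and their adjusted p reached 0.0882, 0.0902 and 0.0686, each without day 5 replicate 1. Lgr5 was lost without any 1 library of days 2 and 3 other than day 3 replicate 1, and without any 1 of day 5.

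Most other targets of the Wnt pathway did not pass the test. Of 15 tested target and feedback genes 1 was called higher, Lgr5, and 1 lower, Ephb2, beside 3.4% and 3.94% of all genes. The median change of the 15 was -0.24. Axin2, the negative regulator that reports pathway activity, had 3.44, 15.5 and 29 RPKM and then 9.61, 18 and 27.6 RPKM, so the groups overlapped widely (change 0.36 ± 0.42, adjusted p = 0.538). Ascl2, a stem cell transcription factor, had medians of 4.24 and 4.49 RPKM (change 0.08 ± 0.36, adjusted p = 0.887). Sox9, a factor of crypt progenitors and Paneth cells, had medians of 10.3 and 8.08 RPKM (change -0.24 ± 0.36, adjusted p = 0.634). For these 3 genes the standard errors leave room for changes in either direction. Ephb2, a receptor that positions cells along the crypt, had 8.81, 14.4 and 18.4 RPKM and then 5, 7.93 and 11.2 RPKM (change -0.74 ± 0.20, adjusted p = 0.0452, at most 0.106 with 1 library left out). With the mouse as a factor 2 of the 15 were called higher and 6 lower, beside 10.4% and 22.9% of all genes, the latter including the cell cycle driver Ccnd1 and the oncogene Myc, which were chosen after their values were seen and had adjusted p of 0.0104 and 0.0388. Of 23 tested ligands, receptors and pathway components none was called, with a median change of -0.11 that was 0.0 with quantile normalization or median-of-ratios rescaling.

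Transcript of Wnt3a itself was present while the conditioned medium was given and nearly absent otherwise. Whether this RNA was made by the organoids or came in with the medium was not tested. Wnt3a was under the filter on low values and was not tested, and it was singled out after its values were seen. In days 2 and 3 it had 0.0233, 0.551 and 4 RPKM (lowest, median, highest), and in days 4 and 5 it had 0, 0.0112 and 0.0802 RPKM. Of the 6 earlier libraries 5 lay above all 6 later ones, the exception being day 3 replicate 1. At day 1 the 3 libraries had 0.492, 6.18 and 1.63 RPKM, and at day 0 they had 0.0215, 0 and 0 RPKM. In each of days 1, 2 and 3 the lowest value was that of replicate 1, the library made without DNase treatment. Wnt3, the ligand that Paneth cells make, had 0.306, 0.618 and 1.5 RPKM and then 0.577, 1.21 and 1.71 RPKM and was not called (change 0.29 ± 0.17, adjusted p = 0.224). The summed mesenchymal markers overlapped between the groups, at the sums given above.

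**Figure D4:**
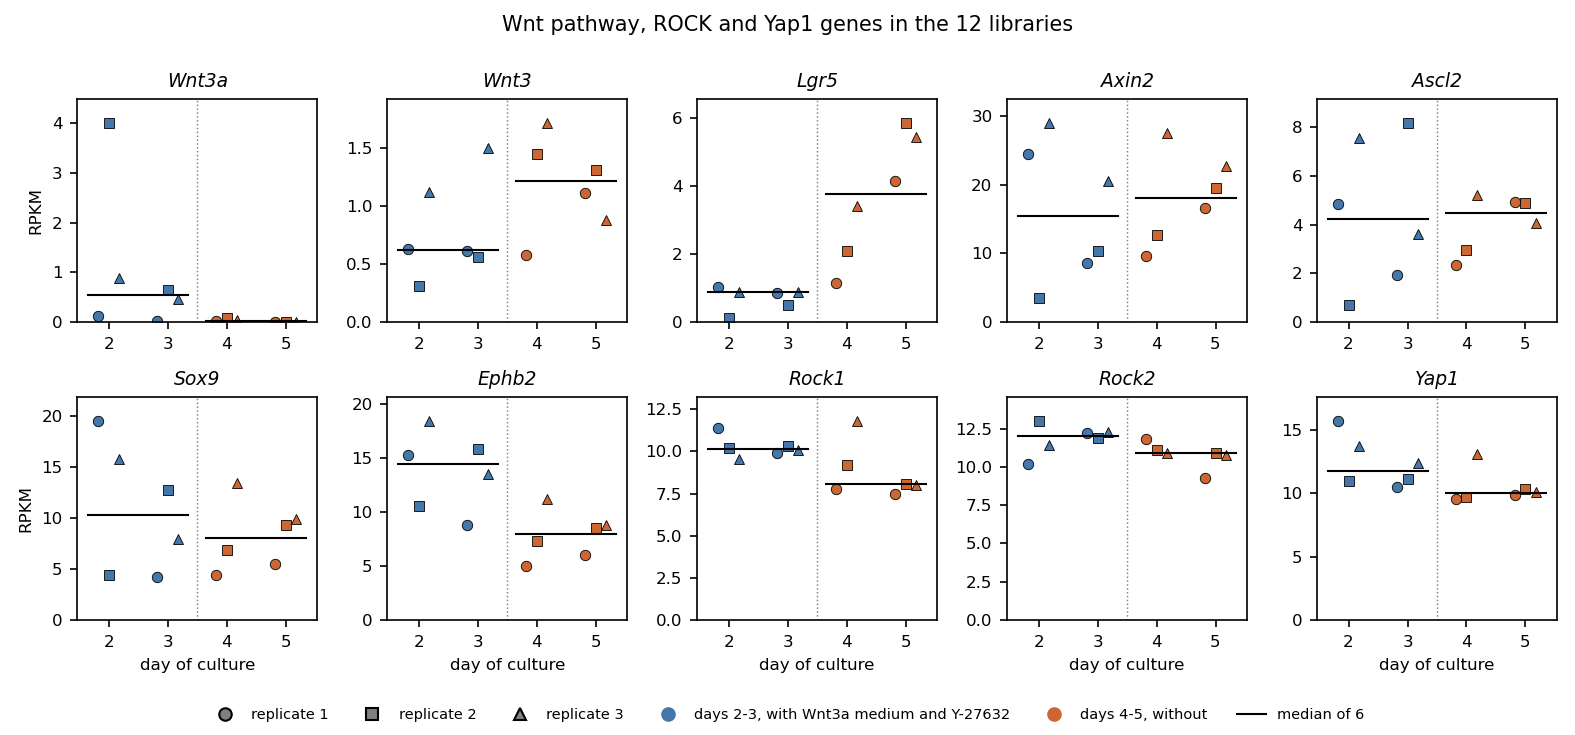
RPKM on a linear axis from 0 against the day of culture, 1 point per library, with the symbol giving the replicate and a line at the median of each group of 6. Wnt3a is at most 0.0802 RPKM in days 4 and 5, Lgr5 is above 1.04 RPKM only there, and Axin2, Ascl2, Sox9, Rock1, Rock2 and Yap1 overlap between the groups.

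No gene of the ROCK pathway passed the test. Of 22 tested ROCK pathway and myosin genes none was called, and their median change was -0.13, beside -0.13 over all genes. With quantile normalization these medians were -0.07 and -0.05. Rock1 had 9.57, 10.1 and 11.4 RPKM and then 7.49, 8.04 and 11.8 RPKM (change -0.22 ± 0.11, adjusted p = 0.142). Without day 4 replicate 3, the highest later value, Rock1 was called at an adjusted p of 0.0129. That fit called 3038 of 10818 genes lower. With all 12 libraries the change of Rock1 was -0.0984 with quantile normalization (adjusted p = 0.413). With median-of-ratios rescaling it was -0.0983 (adjusted p = 0.434). Rock2 had medians of 12 and 10.9 RPKM (change -0.12 ± 0.08, adjusted p = 0.292). In the fit with the mouse 1 of the 22 was called higher and 6 lower, beside 10.4% and 22.9% of all genes. Myl9, a myosin light chain, was under the filter on low values.

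Of 18 tested targets of SRF, the factor that responds to free actin, and actin genes, 1 was called lower and none higher. Over all genes the shares were 3.94% and 3.4%, and the median change of the 18 was -0.23. The gene called lower was Tagln2, an actin-binding transgelin, which fell from 203, 392 and 486 RPKM to 117, 154 and 278 RPKM (change -1.14 ± 0.25, adjusted p = 0.0359, up to 0.0966 with 1 library left out). The mouse fit called 7 lower and 1 higher, beside 22.9% and 10.4% of all genes. None of 13 tested YAP targets was called, with a median change of -0.21, and with the mouse as a factor 4 were called lower, beside 22.9% of all genes. YAP is a coactivator that responds to cell shape and tension. Yap1 had medians of 11.7 and 10 RPKM (adjusted p = 0.167), Ctgf 2.01 and 1.93, and Cyr61 2.01 and 2.01. Ctgf and Cyr61 each reached their highest value in the later group, 11.8 and 9.81 RPKM, and neither was called.

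Markers of the fetal and regenerating epithelium, a state that intestinal cells enter after injury and early in organoid culture, fell in part. Of 18 tested 4 were called lower and none higher, beside 3.94% and 3.4% of all genes. The median change was -1.38 beside -0.13 over all genes, and 16 changes were below 0. With the mouse as a factor 15 of 18 were called lower, beside 22.9% of all genes. Lgals3, the gene of galectin 3, had 56.7, 194 and 740.2 RPKM in the earlier and 12.8, 34.7 and 50.9 RPKM in the later group, without overlap (change -2.65 ± 0.58, adjusted p = 0.0363). S100a6, a calcium-binding protein of this state, had 235, 899 and 1151 RPKM and then 48.9, 145 and 369 RPKM (change -2.26 ± 0.55, adjusted p = 0.0398). Here the groups overlapped, and replicate 1, made without DNase treatment and from mouse 1, was the lowest library of each of days 2, 3, 4 and 5. Krt7, a keratin of simple ductal epithelia, fell by 1.46 on the log2 scale (adjusted p = 0.0435). Ly6a, the surface protein Sca-1 of the regenerating epithelium, had medians of 24.3 and 6.45 RPKM but ranged up to 225 RPKM in the earlier group and was not called (change -1.80 ± 0.76, adjusted p = 0.11). It was called with the mouse as a factor (adjusted p = 0.0114). Clu, a marker of revival stem cells, was not called, with medians of 14.6 and 20.3 RPKM (change 0.28 ± 0.82). Its direction was not stable: the change was -0.194 with the mouse as a factor and -0.298 without day 5 replicate 2, which had 165 RPKM. The adjusted p of Lgals3 and S100a6 reached 0.0971 and 0.101 when 1 library was left out.

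Krt8 and Krt19, keratins of simple epithelia, fell. They were the 2 of 12 epithelial identity genes called lower, with none higher, beside 3.94% and 3.4% of all genes. The mouse fit called 4 of the 12 lower, beside 22.9% of all genes. Krt8 had 643, 1165 and 1665 RPKM and then 349.9, 484 and 699 RPKM (change -1.13 ± 0.25, adjusted p = 0.0363). Krt19 fell from a median of 1957 to 1058 RPKM (change -0.91 ± 0.22, adjusted p = 0.0398). Both overlapped between the groups, and both passed in 3 of 12 fits without 1 library (day 3 replicate 1, day 4 replicate 2 or day 4 replicate 3), with adjusted p of up to 0.0971 and 0.101. Among 17 intestinal transcription factors Gata6 alone was called, higher by 0.48 ± 0.13 (adjusted p = 0.0457), beside 7.34% of all genes called. With the mouse as a factor 3 of the 17 were called higher and 1 lower, beside 10.4% and 22.9% of all genes.

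Few genes of cell division passed the test, and those that did fell. All 30 tested genes of G2 and mitosis had changes below 0, with a median of -0.72, and 5 were called lower, beside 3.94% of all genes. When the mouse was a factor 24 were called lower, beside 22.9% of all genes. Day 5 alone against days 2 and 3 gave all 30 lower, beside 11.8% of all genes. Aurka, a spindle kinase, had 31.5, 43.7 and 59.5 RPKM and then 13.2, 20.5 and 45.4 RPKM (change -0.96 ± 0.24, adjusted p = 0.0425). Its highest later value was that of day 4 replicate 3, inside the range of the earlier group. The ubiquitin-conjugating enzyme Ube2c fell by 0.86, the mitotic activator Cdc20 by 0.93 and the septum protein Anln by 0.94 on the log2 scale. Mki67, the proliferation marker Ki-67, had medians of 33.5 and 21.7 RPKM and an adjusted p of 0.101, 0.0161 with the mouse as a factor. Of 31 S phase genes 30 had changes below 0, with a median of -0.54, and 1 was called lower, beside 3.94% of all genes. This was Rrm2, a subunit of the enzyme that makes deoxynucleotides. Rrm2 had 34.7, 59 and 95.8 RPKM and then 16.6, 20.3 and 59.1 RPKM (change -1.18 ± 0.29, adjusted p = 0.04). With the mouse as a factor 9 S phase genes were called lower, beside 22.9% of all genes. Without day 3 replicate 2 and day 4 replicate 3 together 23 were, beside 2481 of all genes (22.9%). The adjusted p of Aurka and Rrm2 reached 0.103 and 0.102 in fits without 1 library.

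Several enterocyte genes rose, while day 4 replicate 3 had list scores inside the range of the earlier group. Of 20 brush border proteins 5 were called higher and none lower, beside 3.4% and 3.94% of all genes. The median change was 0.98. With the mouse as a factor 11 were called higher, beside 10.4% of all genes. Treh, the enzyme that splits trehalose, had 2.21, 9.77 and 36.1 RPKM and then 15.6, 96.1 and 129.6 RPKM (change 2.76 ± 0.64, adjusted p = 0.0385). The peptidases Anpep and Mme rose by 2.30 and 2.45, and Ggt1, which acts on glutathione, by 2.37. Alpi, the intestinal alkaline phosphatase, had medians of 456 and 618 RPKM (change -0.01 ± 0.36), and Krt20, a keratin of mature enterocytes, 171 and 149 RPKM (change -0.08 ± 0.38), so these classical markers were not called. None of 18 nutrient and bile acid transporters was called, although all 18 changes were above 0 with a median of 0.89. With the mouse as a factor 11 of the 18 were called higher, beside 10.4% of all genes. Of 17 lipid absorption genes 2 were called higher and 1 lower, beside 3.4% and 3.94% of all genes. The median change of the 17 was 0.98. With the mouse as a factor 8 were called higher and 1 lower, beside 10.4% and 22.9% of all genes. Without day 3 replicate 2 and day 4 replicate 3 together, 14 of the 17 were called higher, beside 9.72% of all genes.

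Among the lipid genes, Apoc3, an apolipoprotein of secreted lipid particles, had 4.2, 6.73 and 28.9 RPKM and then 8.36, 115 and 155 RPKM (change 2.88 ± 0.67, adjusted p = 0.0385). Fabp2, an intracellular fatty acid carrier, rose from a median of 263 to 1039 RPKM (change 1.69 ± 0.45, adjusted p = 0.0455). Fabp1, the most abundant carrier of this kind here, had 930.3, 1760 and 4870.1 RPKM and then 1925, 8800.2 and 11761 RPKM and narrowly missed the threshold (change 1.78 ± 0.53, adjusted p = 0.053, 0.0156 with the mouse as a factor). Its lowest later value was that of day 4 replicate 3. Scarb1, the receptor SR-BI that takes up cholesterol from lipoproteins, went against the list. It had 14.4, 23.6 and 34.1 RPKM in the earlier and 4.04, 8.51 and 11.7 RPKM in the later group, without overlap (change -1.45 ± 0.24, adjusted p = 0.0201). In fits without 1 library the adjusted p of Treh, Apoc3, Fabp2 and Scarb1 reached 0.0996, 0.0996, 0.106 and 0.064.

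The other large decreases without overlap between the groups were of mixed function. Hsd17b2, a dehydrogenase that inactivates sex steroids, had 13.8, 16.1 and 33.6 RPKM and then 2.32, 4.79 and 6.91 RPKM (change -1.78 ± 0.24, adjusted p = 0.0164). Before these days its mean was 2.53 ± 1.66 (SD, n = 3) RPKM at day 0 and 23.9 ± 15.9 RPKM at day 1. Pcsk6, a convertase that activates secreted proproteins, had 10.2, 15.1 and 20.8 RPKM and then 4.75, 5.63 and 8.6 RPKM (change -1.17 ± 0.17, adjusted p = 0.0164). Cldn2, the claudin that forms water and cation pores in tight junctions, fell from a median of 155 to 86.6 RPKM (change -0.83 ± 0.17, adjusted p = 0.0313). The rest were the imprinted gene Phlda2, the adaptor gene Sfn, the filamin regulator Rflnb, Pgap1, which trims GPI anchors, and the ferric reductase gene Frrs1, whose changes were -1.27, -1.19, -1.15, -0.98 and -0.79. In the fits without 1 library the adjusted p of Hsd17b2 and Pcsk6 stayed between 0.00396 and 0.0566 and between 0.00275 and 0.0591. They passed in 9 of 12 such fits and failed without day 2 replicate 1, day 5 replicate 1 or day 5 replicate 3.

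Few genes of the stress and signalling lists were called. Over all genes, 3.4% were called higher and 3.94% lower in the fit without a block. Among 15 immediate early genes Fos and Fosl1, subunits of AP-1, were called lower and none higher. Fosl1 had medians of 3.3 and 0.459 RPKM (change -1.51 ± 0.37, adjusted p = 0.0398) and Fos 16.1 and 6.5 RPKM (change -1.28 ± 0.34, adjusted p = 0.0459). Fosl1 passed the filter on low values only through the earlier libraries. Of 21 hypoxia and glycolysis genes 2 were called higher, Ndrg1 (change 1.88) and the histone demethylase gene Kdm3a (change 0.82). Day 5 alone against days 2 and 3 gave 14 higher and none lower, beside 7.84% and 11.8% of all genes. Day 4 alone gave none, as for all genes. Of 19 ATF4 targets Phgdh and Psat1, both of serine synthesis, were called lower and none higher. With the mouse as a factor 11 of these targets were called lower, beside 22.9% of all genes. Their list score was 1.62 in day 3 replicate 2 and at most 0.22 in the other 11 libraries. Of 15 p53 targets 2 were called lower, Ccng1 (-0.85) and Tigar (-0.79), and 1 higher, Sesn1 (0.77). With the mouse as a factor 9 were called lower and 2 higher, beside 22.9% and 10.4% of all genes. B2m, the light chain of MHC class I, rose by 0.96 ± 0.26 (adjusted p = 0.0471), as the only call among 12 interferon and MHC genes. Of 21 genes of ER folding 1 was called, Creld2, which fell by 0.56 on the log2 scale. No gene was called among 14 NRF2 targets, 22 cholesterol synthesis genes or 13 BMP pathway genes. The mouse fit called 6 NRF2 targets lower, beside 22.9% of all genes. The calls of Fos, Ndrg1, Ccng1 and B2m were lost without any of 10 single libraries, all but day 3 replicate 1 and day 4 replicate 3, with adjusted p of up to 0.106, 0.106, 0.103 and 0.11.

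No difference of the effect by DNase treatment was called. The difference of the effect between the 8 treated and 4 untreated libraries passed the threshold for 0 of 10818 genes in limma, with 307 at an unadjusted p under 0.05 and a lowest adjusted p of 0.909. Within the 8 treated libraries alone no gene was called and 2474 had an unadjusted p under 0.05, and within the 4 untreated ones no gene was called and 1871 did. All 64 named genes that were called had the same direction in both subsets. They were called from the 2 subsets together, so this was partly fixed in advance. For Lgr5 the change was 1.67 in treated and 0.77 in untreated libraries, for Reg1 6.53 and 7.10, and for Lgals3 -3.15 and -1.64. All untreated libraries were replicate 1 from mouse 1, so DNase treatment and that replicate cannot be told apart. No library was a copy of another, and with 30 pooled wells in each, p-values measure only the spread between these libraries.

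**Figure D5:**
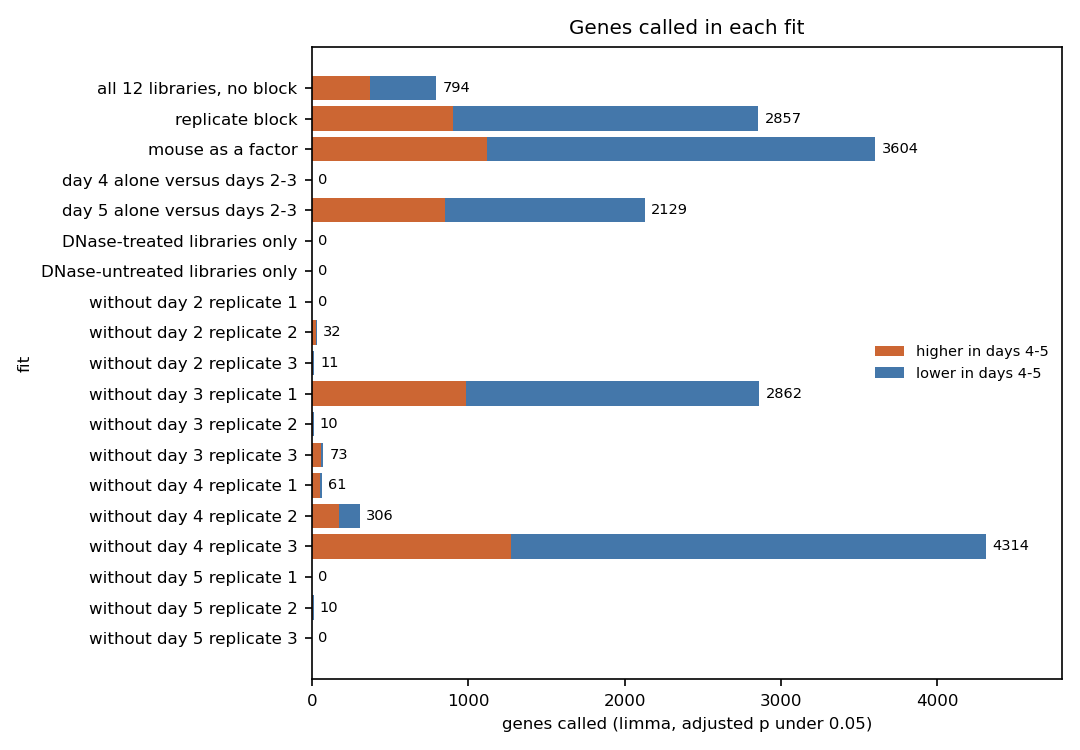
Bars give the number of genes called by limma in each fit, split into higher (orange) and lower (blue) in days 4 and 5. The count is 794 with all 12 libraries and no block, 3604 with the mouse as a factor, 0 without day 2 replicate 1, day 5 replicate 1 or day 5 replicate 3, and 4314 without day 4 replicate 3.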

How the data were processed

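Bulk mRNA sequencing of mouse intestinal organoids was used as RPKM, which the authors deposited for 24116 genes by Entrez number. Per the submitters' processing notes, bcl2fastq 2.17, STAR 2.5.2b and edgeR 3.20.5 were used, with build mm10; how reads were counted is not given in the sources used here. RNA came from a kit for single cells and the libraries from a TruSeq mRNA kit, per the labels' protocols. RPKM is not a count, so log2(RPKM + 1) was tested with limma 3.58.1 in R 4.3.3 (trended empirical Bayes, two-sided, Benjamini-Hochberg over the 10818 genes that reached 1 RPKM in 3 or more of 12 libraries), 6 libraries of days 4 and 5 against 6 of days 2 and 3. A gene was called at an adjusted p under 0.05. RPKM steps of low genes gave the implied depth of 43010000 to 52400000 reads per library. Symbols and coordinates were matched to RefSeq by Entrez number (24061 matched).

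Named genes were the 10 largest called increases and 10 largest called decreases without overlap between the groups and with at least 5 RPKM in the higher mean (clone and predicted-gene names left out), up to 4 called members of each list, and a fixed set of pathway genes. An item that this rule names is not reported here. The members and lists were chosen with earlier results of these data known. Lists are described by counts and medians, with no set test. Of lists for other cell types, no mesenchymal, immune or red blood cell marker passed the filter on low values, and 1 endothelial marker (Esam) and 2 nuclear noncoding RNAs did and were not called.

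Titles name the mouse, which pairs libraries across days. Deviations from day means correlated with a median r of 0.469 between libraries of the same mouse (15 of 18 pairs over 0.1) and -0.202 between different mice, and 0.414 for the same replicate number. Alternatives were other pseudocounts, filters, scalings, blocks, day subsets, DNase subsets and leaving out each library. Labels do not say that replicates are separate cultures beyond the mouse. Promoters were 250 bases before the RefSeq start (GRCm38.p6).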

Additional observations from a re-analysis of the deposited data

Results flagged for a closer look

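In groups of 6 libraries, 1 library was far from the other 5 by Dixon's test in 16 of 218 groups of values, where chance gives about 1 in 20. The test used log2(RPKM + 1) for genes, so the RPKM printed below are not on its scale. Of the 16, 8 were in day 4 replicate 3. There Anpep had 52.4 RPKM against 135 to 225 RPKM in the other later libraries, Zg16 67.6 against 201 to 348, Reg3g 25.8 against 86.6 to 172, and Yap1 13.1 against 9.52 to 10.3. The list scores of that library, means of centred log2(RPKM + 1), were -0.83 for brush border proteins (others 0.53 to 1.32), -0.86 for nutrient and bile acid transporters (0.41 to 1.15), -1.12 for lipid absorption (0.63 to 1.29) and 0.61 for S phase (-0.86 to -0.31). In day 3 replicate 1, Defa21 had 1.07 and Defa22 1.38 RPKM, each against 0 to 0.263 in the other earlier libraries, and reads of these near-identical genes may be shared. In day 2 replicate 2, Hsd17b2 had 33.6 RPKM (others 13.8 to 17.9), Nrarp 4.93 (7.08 to 8.33) and Olfm4 1.77 (22.7 to 71.3). Rock2 had 9.26 RPKM in day 5 replicate 1 (10.8 to 11.8). Day 3 replicate 2 had scores of 1.62 for ATF4 targets (-0.39 to 0.22) and 0.19 for hypoxia and glycolysis (-0.39 to -0.19).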

How the results depend on the processing

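The count of 794 called genes moved by more than 1.5 times in most fits. It was 89 of 18219 genes without a filter on low values, 386 with a coefficient for each day and 1803 with such a fit of all 18 libraries. It was 6257 with array weights, 3214 with the mouse as a random effect, 3604 with the mouse as a factor and 2857 with the replicate block. It was 2129 for day 5 alone and 3533 without day 3 replicate 2 and day 4 replicate 3 together. In limma it was 0 for day 4 alone (989 genes at an unadjusted p under 0.05), against day 3 alone (1402), in DNase-treated libraries only (2474) and in DNase-untreated libraries only (1871). Leaving out 1 library at a time gave 0 to 4314 calls. Why the counts differ was not tested. Pseudocounts of 0.1 and 5, a filter at 5 RPKM and both rescalings gave 747, 729, 871, 733 and 772. All 794 calls kept their sign where they had a value. These fits reuse libraries that made the calls, so this was partly fixed in advance. With the replicate block and with the mouse as a factor 64 of 64 called named genes stayed called. The difference of the effect by DNase treatment had 0 calls in each alternative run. Among lists with a median farther from 0 than 1 SD over replicates, the median turned sign for Wnt components (0.0 with quantile normalization and with median-of-ratios rescaling), immediate early genes (0.15 for day 5 alone, 0.02 in DNase-untreated libraries, 0.01 without day 3 replicate 2 and day 4 replicate 3 together and, with 1 library left out, -0.24 to 0.03, the latter without day 3 replicate 2), hypoxia and glycolysis (-0.22 for day 4 alone) and NRF2 targets (0.1 for day 4 alone). Medians nearer 0 also crossed it, such as those of stem cell markers (0.08, and -0.04 with the mouse as a factor), intestinal transcription factors (-0.08, and 0.04 with median-of-ratios rescaling) and cholesterol synthesis (-0.08 and 0.05). At 43.0 to 52.4 reads per kilobase for 1 RPKM, genes well under 1 RPKM rest on few reads. With 6 libraries against 6, adjusted p-values lay near the threshold.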

Other observations

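Beyond the lists, large changes were seen in genes that were chosen after their values were seen. Rdh7, which encodes a retinol dehydrogenase, went from a median of 5.16 RPKM in days 2 and 3 to 96.4 RPKM in days 4 and 5 (log2 change 3.61, limma adjusted p = 0.0331), the alcohol dehydrogenase gene Adh1 from 142 to 1724 RPKM (3.39, 0.0385) and Adh4 from 2.27 to 52.7 RPKM (3.33, 0.0363). The protease precursor gene Ctrb1 rose from 1.94 to 77 RPKM (3.59), the trypsin inhibitor Spink1 from 26.8 to 220 RPKM (3.07), the lipase cofactor Clps from 2.58 to 22.2 RPKM (2.49) and the nuclease Dnase1 from 0.323 to 23.4 RPKM (3.24). The diamine oxidase Aoc1 rose from 16.9 to 139 RPKM (2.69). Of these increases only that of Clps was without overlap between the groups. Dnase1 passed the filter on low values only through the later libraries.

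Among decreases, Cyp1a1, a cytochrome that the aryl hydrocarbon receptor induces, fell from 51.6 RPKM (range 5.72 to 92.1) to 1.1 RPKM (range 0.42 to 13), a log2 change of -3.52 ± 0.68 (SE, limma adjusted p = 0.0293). The phosphatase gene Akp3 fell from 571 to 141 RPKM (-2), the aldo-keto reductase gene Akr1b8 from 135 to 30.2 RPKM (-2.15), the acyltransferase gene Mboat1 from 46.6 to 8.8 RPKM (-2.1), and the chloride channel gene Ano1 from 14 to 1.85 RPKM (-2.2). Lamin A, encoded by Lmna, fell from 61 to 22.3 RPKM (-1.4) and the ephrin receptor gene Epha2 from 24.5 to 7.33 RPKM (-1.63). For all of these decreases the groups overlapped. Like every call of this comparison, these were lost without day 2 replicate 1, day 5 replicate 1 or day 5 replicate 3.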
